A study of Mus musculus with 4 samples.

Results

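A set of 10 genes of insulin and insulin-like growth factor (IGF) signalling was followed through the cell classes of the mouse pituitary, the gland below the brain whose endocrine cells release growth hormone, prolactin, ACTH and the other pituitary hormones. They were chosen by name, and all were found among the 32285 genes of the deposited count matrices. They are the ligand Igf1, the receptors Insr, Igf1r and Igf2r, the adaptor Irs2, and the binding proteins Igfbp2, Igfbp3, Igfbp4, Igfbp5 and Igfbp7. Glands came from wild-type male mice of the C57BL/6J strain, and the labels give no age. One group, CTRL, ate a control diet and the other, HFD, a diet high in fat, each over 12 weeks. The tissue was digested with collagenase and trypsin and single cells were captured in droplets, where the 3' end of each RNA receives a unique molecular identifier (UMI). Each diet had 2 libraries, here CTRL 1, CTRL 2, HFD 1 and HFD 2. The number of glands in a library, and whether libraries of a diet came from separate animals, is not stated in the labels, so the p-values below measure the spread between these samples and that spread may be technical.

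Insulin and IGF1 act through related receptor tyrosine kinases, Insr and Igf1r, which pass the signal to adaptors such as Irs2 and on to the PI3 kinase and MAP kinase pathways. Igf2r, the cation-independent mannose 6-phosphate receptor, binds IGF2 and takes it up for degradation. The secreted binding proteins hold IGFs in the fluid around cells and set how much ligand reaches the receptors, and Igfbp7 differs from the others in its low affinity for IGFs. In the pituitary, IGF1 is known for its negative feedback on growth hormone release, since growth hormone raises IGF1 production in the liver.

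For CTRL 1, CTRL 2, HFD 1 and HFD 2 respectively, 4347, 6827, 5874 and 6927 cells were kept, 23975 in all, with median depths of 10075 to 17953 UMIs per cell. Barcodes were not independent between libraries. HFD 1 shared 3116 of its 10921 barcodes with HFD 2 and 1423 with CTRL 2, whereas the other pairs of libraries shared 14 to 22. In most of the shared barcodes 1 library held a few percent of the other's UMIs: 3102 entries of HFD 1 had a median of 5.58% of the UMIs of the same barcode in HFD 2, 1007 entries of HFD 1 had 2.87% of those in CTRL 2, and 397 entries of CTRL 2 had 2.51% of those in HFD 1. Such an entry, with under 20% of the UMIs of its counterpart, is called a copy here. Where both entries could be classed they fell in the same class in 94.9% of 1340 barcodes shared by HFD 1 and HFD 2. Copies were left out, 4104 of them from HFD 1, 399 from CTRL 2, 15 from CTRL 1 and 1 from HFD 2. With copies kept, none of the member genes passed the diet test described below, against 1 pair of gene and class without them.

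Cells were clustered without the genes under study and named from marker genes; names end in "-like", since RNA alone supports them. The classes large enough to test numbered 10: somatotrope-like (8660 cells, growth hormone), lactotrope-like (5310, prolactin), corticotrope-like (2329, ACTH), melanotrope-like (1743, the Pomc cells of the intermediate lobe), stem-like (1374, Sox2), endothelial-like (1253), gonadotrope-like (981, the gonadotropins), thyrotrope-like (714, thyrotropin), macrophage-like (577) and mesenchymal-like cells (451, collagens). Levels are CPM: the gene's UMIs divided by all UMIs of the class in a library, scaled to 1e6. "Highest" and "lowest" below refer to these 10 classes. Levels show how 1 gene differs between classes, not how genes compare with each other. A droplet also holds RNA set free by broken cells, so a class at under 10% of a gene's highest class is counted as one whose level free RNA could give. Shares of cells with a UMI are given after thinning each cell to 2000 UMIs, since the median depth differed between classes, from 5561 UMIs in endothelial-like to 26391 in gonadotrope-like cells (lactotrope-like 11796, stem-like 14378, thyrotrope-like 14284, mesenchymal-like 6857). The cells deep enough for this were 4131, 6525, 5581 and 6654 of those kept, in the same order.

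Promoter sequences are shown for 4 members because their values carry most of what follows. Igfbp4 and Igfbp7 had the same highest class of the 10 tested, mesenchymal-like cells, which was also that of Igf1 and Igfbp2. Igfbp5 and Irs2 had the most classes with a low diet p. Each line gives the 100 bases before the RefSeq start of the gene (GRCm38.p6), 5' to 3' on the gene's strand, with matches to TATAAA or GGGCGG, searched on both strands, in capitals.
Igfbp4, chr11:99041144-99041243, plus strand: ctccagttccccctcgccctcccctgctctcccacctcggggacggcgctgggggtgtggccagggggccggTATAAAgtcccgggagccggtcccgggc
Igfbp7, chr5:77408046-77408145, minus strand: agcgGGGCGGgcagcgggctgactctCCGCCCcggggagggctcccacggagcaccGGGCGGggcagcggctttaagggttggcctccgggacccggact
Igfbp5, chr1:72874866-72874965, minus strand: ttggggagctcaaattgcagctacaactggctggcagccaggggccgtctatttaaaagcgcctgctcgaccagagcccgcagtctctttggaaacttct
Irs2, chr8:11008930-11009029, minus strand: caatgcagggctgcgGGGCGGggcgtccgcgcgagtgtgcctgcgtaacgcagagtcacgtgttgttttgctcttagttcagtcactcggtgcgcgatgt
Igfbp4 holds TATAAA (the TATA box) starting 28 bases before the start, a motif found in the same window of 5.56% of 32851 RefSeq promoters. Igfbp7 holds GGGCGG (the GC box) 3 times and Irs2 once, and 24.7% of promoters hold it. The Igfbp5 window has neither. The cyclic AMP response element TGACGTCA, found in 1.15% of promoters, and the AP-1 element TGANTCA, found in 2.73%, are in none of these 4 windows. A RefSeq promoter was matched for 9 of the 10 genes.

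**Figure D1:**
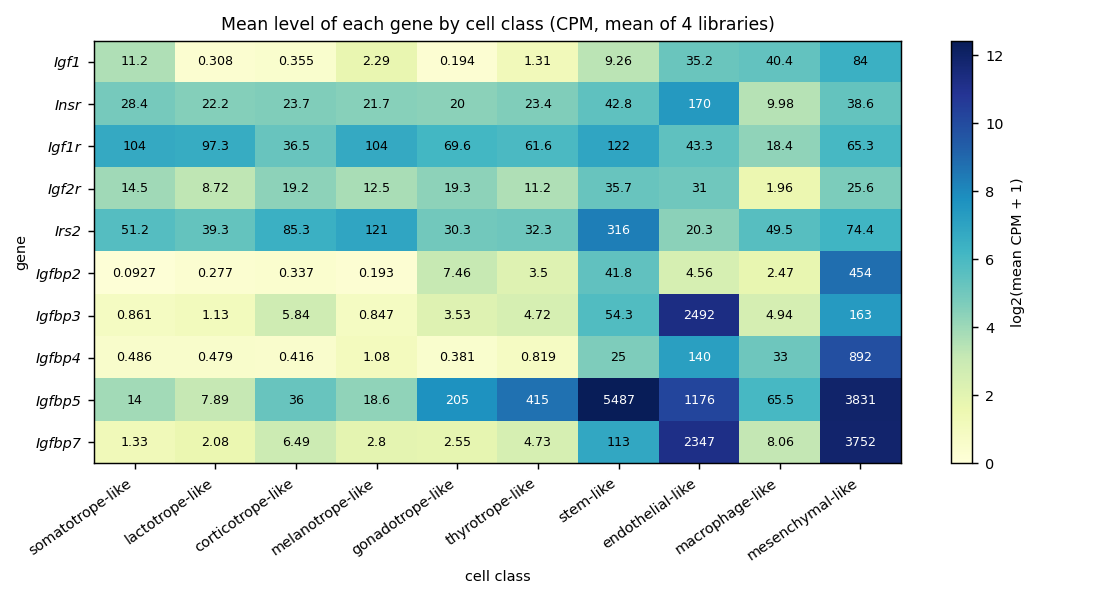
Heat map of the mean level of each gene (rows, CPM, log colour scale, mean over 4 libraries) in the 10 tested classes (columns). The binding proteins are high in stem-like, endothelial-like or mesenchymal-like cells and low in most hormone classes, while Igf1r lies between 18.4 and 121.5 CPM in every class.

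The ligand Igf1 (chr10:87858265-87937042, plus strand; gene coordinates here and below are those of GENCODE vM21 on mm10) was highest in mesenchymal-like cells, at 33.9, 122, 102 and 78.0 CPM in CTRL 1, CTRL 2, HFD 1 and HFD 2, the order used from here on. Macrophage-like cells had 40.4 CPM ± 12.4 (SD, n = 4 libraries, as in all levels below) and endothelial-like cells 35.2 ± 5.80, and these 3 classes overlapped from one to the next. The lowest endothelial-like library lay above every somatotrope-like library, where Igf1 had 7.86, 9.46, 21.7 and 5.72 CPM. HFD 1 was thus the highest of the somatotrope-like libraries, and it was so in each of the 3 somatotrope-like clusters. Because somatotrope-like cells are so many, they still held 51.9% of all Igf1 UMIs (range over libraries 37.4 to 69.6%), spread over 1042 of the 8660 cells with at most 5 UMIs each. Stem-like cells had 9.26 CPM ± 3.45, and the other hormone classes had 2.29 CPM or less. In 5 classes the level could come from free RNA. With every cell thinned to 2000 UMIs, 13.8% of mesenchymal-like cells had an Igf1 UMI, against 0.0595% of lactotrope-like cells (28.2% and 0.301% unthinned).

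The insulin receptor Insr (chr8:3122061-3279617, minus strand) was highest in endothelial-like cells, at 134.9, 158, 173 and 214 CPM. All 4 libraries lay above every library of the next class, stem-like cells, whose mean was 3.97 times lower (42.8 CPM ± 4.80). Mesenchymal-like cells overlapped stem-like cells at 38.6 ± 14.4. The 6 hormone classes ranged from 20.02 to 28.4 CPM, each overlapping its neighbour in that order, and macrophage-like cells were lowest at 9.98 ± 3.14. In thinned cells, Insr was seen in 27.7% of endothelial-like cells (53.2% unthinned).

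Igf1r (chr7:67952827-68233668, plus strand), the receptor for IGF1, had the most even levels of the 10 genes, its lowest class at 15.2% of its highest. Stem-like cells had 119, 126, 127 and 113 CPM, and their lowest library was above the highest somatotrope-like one although the means differed by 1.16 times. Somatotrope-like (104 CPM ± 4.595), melanotrope-like (104 ± 10.6) and lactotrope-like cells (97.3 ± 9.81) overlapped. Gonadotrope-like, mesenchymal-like and thyrotrope-like cells followed at 61.6 to 69.6 CPM, then endothelial-like (43.3 ± 6.25), corticotrope-like (36.5 ± 3.32) and macrophage-like cells (18.4 ± 3.37). No class was under 10% of the highest. The corticotrope-like level was thus below those of the other 5 hormone classes, and no library of theirs overlapped it. Thinned to 2000 UMIs, 20.5% of stem-like and 19.5% of somatotrope-like cells had an Igf1r UMI (70.4% and 70.3% unthinned). Somatotrope-like cells held 43.9% of all Igf1r UMIs.

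Igf2r (chr17:12682406-12769664, minus strand) was highest in stem-like cells, at 30.2, 36.8, 34.5 and 41.2 CPM, and endothelial-like (31.0 ± 2.52) and mesenchymal-like cells (25.6 ± 8.39) overlapped them. Hormone classes ranged from 8.72 CPM ± 0.452 in lactotrope-like to 19.3 ± 3.72 in gonadotrope-like cells. Macrophage-like cells had 7 Igf2r UMIs in all, and 0 in HFD 2. All 3 receptors were lowest in macrophage-like cells.

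Irs2 (chr8:10984681-11008458, minus strand), an adaptor that links the insulin and IGF1 receptors to PI3 kinase, was highest in stem-like cells, at 257, 434, 256 and 317 CPM. Every stem-like library lay above every melanotrope-like library, the next class, at 161, 80.3, 144 and 101 CPM; the means differed by 2.60 times. Corticotrope-like cells had 85.3 CPM ± 9.93 and mesenchymal-like cells 74.4 ± 33.8. Somatotrope-like, lactotrope-like, thyrotrope-like and gonadotrope-like cells ranged from 51.2 down to 30.3 CPM, each overlapping the next, and macrophage-like cells lay among them at 49.5. Endothelial-like cells, highest for Insr, were lowest for Irs2 at 20.3 CPM ± 9.26, which is 6.42% of the stem-like level. Stem-like cells were unequal among themselves: 535 of 1374 cells had 5 or more Irs2 UMIs and held 87.8% of the class's Irs2 UMIs, with up to 107 in 1 cell, and 984 cells had at least 1. In thinned cells Irs2 was seen in 35.8% of stem-like and 5.03% of gonadotrope-like cells (71.6% and 43.4% unthinned).

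**Figure D2:**
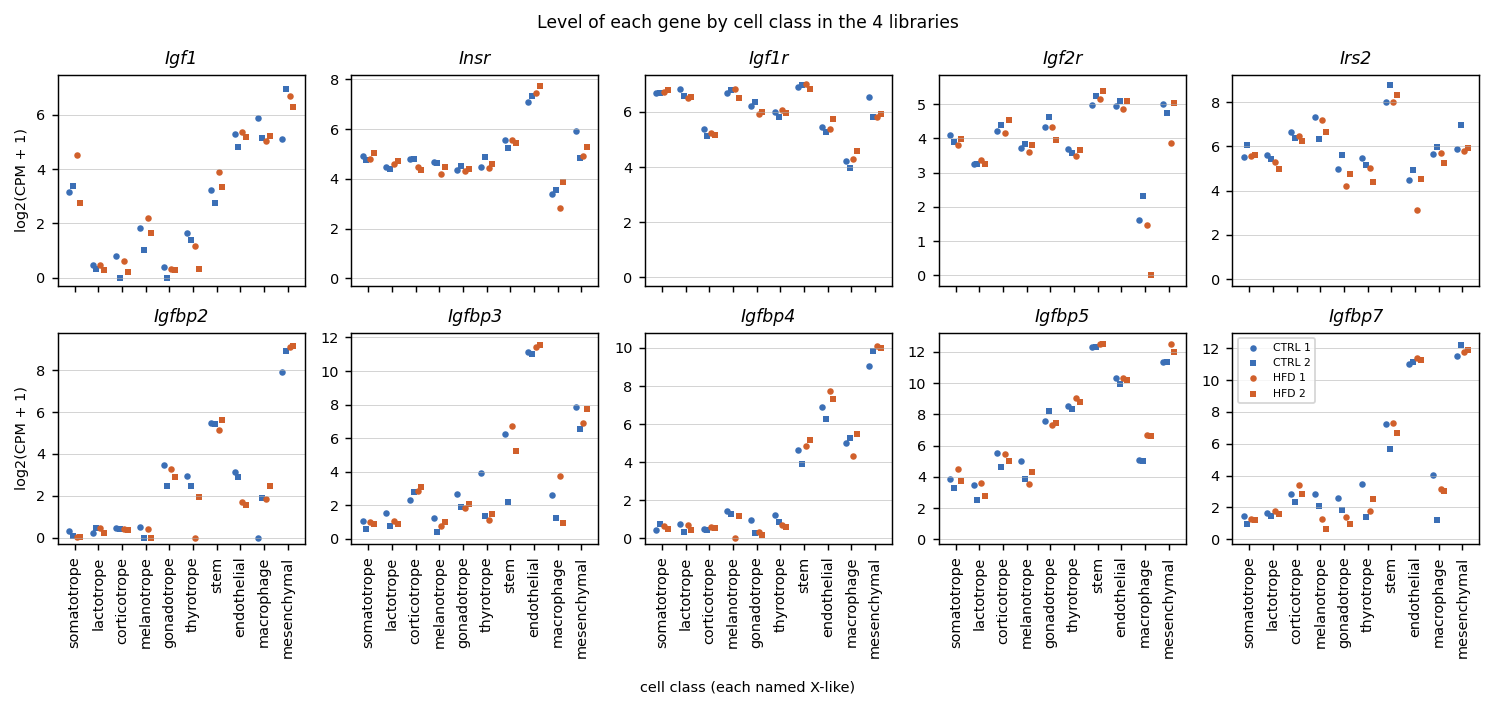
Level of each gene in every library (log2 of CPM plus 1, a log scale; 1 point per library, CTRL and HFD in different colours) for the 10 tested classes. The 4 endothelial-like points stand above all others for Insr and Igfbp3 and the 4 stem-like points for Irs2, while Igfbp3 in stem-like cells spreads from 3.56 to 103 CPM.

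The 5 binding proteins were high in classes that make no pituitary hormone, and no 2 of them had the same order of classes. Igfbp2 (chr1:72824503-72852474, plus strand) was highest in mesenchymal-like cells, at 236, 479, 543 and 559 CPM. Stem-like cells came next at 41.8 CPM ± 5.99, 10.9 times lower with no overlap, and gonadotrope-like cells had 7.46 ± 2.50. The other 7 classes had 4.56 CPM or less, down to 0.0927 CPM in somatotrope-like cells. By the 10% rule 9 classes were counted as ones whose level free RNA could give, stem-like cells among them. Yet 475 of 1374 stem-like cells had an Igfbp2 UMI and 48 had 5 or more, with up to 18 in 1 cell. The part of free RNA in these levels was not tested. Igfbp2 was seen in 56.3% of thinned mesenchymal-like cells and 0.0198% of lactotrope-like cells (79.4% and 0.358% unthinned). Igfbp2 and Igfbp5 are neighbours on chromosome 1, pointing towards each other with 5457 bases between their ends, yet their highest classes differed.

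Igfbp5 (chr1:72857932-72874884, minus strand) had the most UMIs of the 10 genes, 176849 in the kept cells. It was highest in stem-like cells, at 5083, 5039, 5902 and 5922 CPM, and 75.9% of all its UMIs (73.1 to 81.1% over libraries) came from this class, which made up 5.87% of the cells. Mesenchymal-like cells had 2670, 2578, 5913 and 4161 CPM, so that HFD 1 reached the stem-like range and the other 3 libraries lay below it. Endothelial-like cells followed at 1176 CPM ± 145. Among the hormone classes, thyrotrope-like (415 CPM ± 87.5) and gonadotrope-like cells (205 ± 63.9) stood above the rest, which ranged from 36.0 ± 10.3 in corticotrope-like to 7.89 ± 3.04 in lactotrope-like cells. Both glycoprotein hormone classes are under 10% of the stem-like level, yet 41.3% of thinned thyrotrope-like and 28.1% of thinned gonadotrope-like cells had an Igfbp5 UMI, against 1.43% of lactotrope-like cells (71.6%, 80.9% and 6.70% unthinned). In stem-like cells the share was 95.7% (97.7% unthinned).

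Igfbp3 (chr11:7206086-7213923, minus strand), the main carrier of IGF1 in blood, was an endothelial-like gene here. Its level was 2227, 2074, 2726 and 2939 CPM in that class, which held 89.97% of its UMIs (85.2 to 95.3%) in 5.30% of the cells. In thinned cells it was seen in 85.2% of endothelial-like and 0.179% of lactotrope-like cells (91.2% and 1.36% unthinned). Mesenchymal-like cells had 163 CPM ± 69.3, 15.3 times less, and the hormone classes and macrophage-like cells 5.84 CPM or less. Stem-like cells had 74.1, 3.56, 103 and 36.8 CPM, a spread in which CTRL 2 was far below the others. Of 1374 stem-like cells, 56 with 5 or more Igfbp3 UMIs held 96.4% of the class's Igfbp3, and 54 of these 56 had at least 2 UMIs of the 6 endothelial markers (Pecam1, Plvap, Cdh5, Kdr, Emcn, Esam), against 14 of the 1286 stem-like cells without Igfbp3. The summed level of these markers in stem-like cells was 262, 18.0, 341 and 75.6 CPM, in the same order of libraries as Igfbp3. When the 444 stem-like cells with at least 2 UMIs of the markers of endothelial-like, macrophage-like or mesenchymal-like cells were left out, Igfbp3 was at 3.04, 2.90, 1.60 and 4.12 CPM. Among the 154 mesenchymal-like cells left by the same rule Igfbp3 had 0 UMIs, which allows up to 3.81 CPM over the 4 libraries.

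Igfbp4 (chr11:99041244-99054392, plus strand) was highest in mesenchymal-like cells, at 524, 930, 1093 and 1023 CPM. Endothelial-like cells had 140 CPM ± 55.9, 6.36 times lower, macrophage-like cells 33.0 ± 10.5 and stem-like cells 25.0 ± 8.85. The 6 hormone classes had 1.08 CPM or less. Mesenchymal-like cells held 42.9% of the Igfbp4 UMIs in 1.80% of the cells. Igfbp7 (chr5:77349240-77408041, minus strand) was likewise highest in mesenchymal-like cells, at 2937, 4690, 3529 and 3852 CPM, and its endothelial-like level of 2347 ± 298 CPM was 1.60 times lower with no overlap of libraries. Stem-like cells were 20.8 times below that, at 113 ± 49.03, and hormone classes had 6.49 CPM or less. With the same 444 stem-like cells left out as for Igfbp3, stem-like Igfbp7 was at 43.8, 45.1, 35.8 and 58.9 CPM. Igfbp7 was seen in 97.6% of thinned mesenchymal-like and 92.1% of thinned endothelial-like cells, against 0.496% of lactotrope-like cells (97.8%, 94.1% and 2.17% unthinned).

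**Figure D3:**
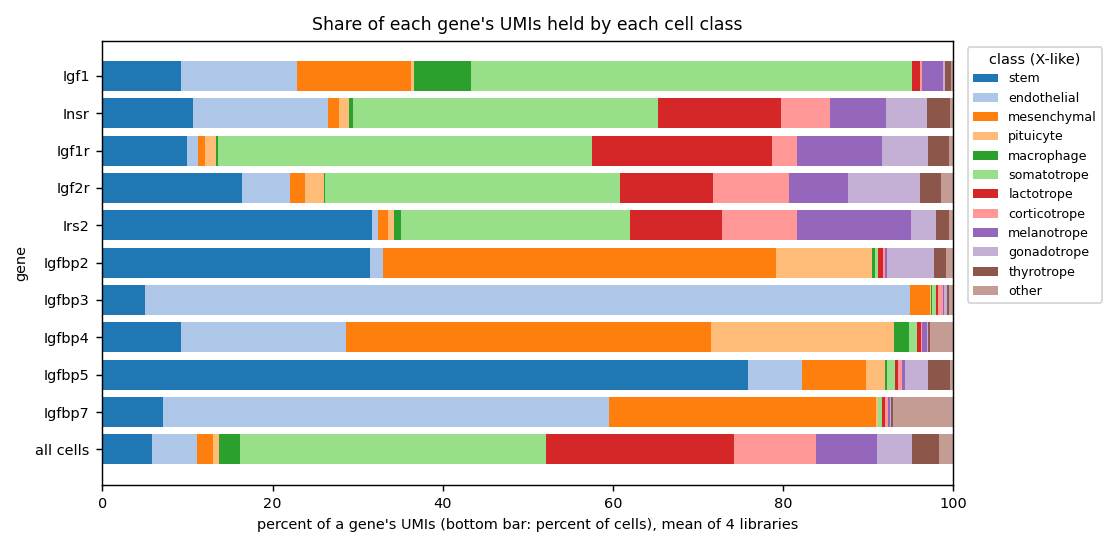
Share of each gene's UMIs (percent, stacked bars starting at 0, mean over 4 libraries) that came from each class, with the share of cells in the bottom bar. Endothelial-like cells give 89.97% of Igfbp3 and stem-like cells 75.9% of Igfbp5, while somatotrope-like cells give 43.9% of Igf1r and 35.9% of Insr.

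Classes too small for the diet test are given as levels over the same 4 libraries. Pericyte-like cells (97 cells, mural cells of small vessels) had 4347 CPM of Igfbp7, above the mesenchymal-like mean of 3752, and 626 of Igfbp5. Pituicyte-like cells (175 cells, the glia of the posterior lobe) had 1648 CPM of Igfbp5, 713 of Igfbp4, 179 of Igfbp2 and 161 of Igf1r, the last above the stem-like mean of 121.5. They made up 0.701% of cells and held 21.5% of the Igfbp4 UMIs, more than the 19.4% in endothelial-like cells.

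The genes whose levels were most like each member were ranked by Pearson's r of log2(CPM + 1) over 40 points (10 classes in 4 libraries, which share cells, depth and markers, so r is a description). Igfbp3 was closest to Tek (r = 0.978), a receptor of angiopoietins, then to Cdh5 (0.977), the cadherin of endothelial junctions, and Itm2a (0.977). Igfbp7 was closest to Ramp2 (0.977), Hspg2 (0.974), the basement membrane proteoglycan perlecan, and Ebf1 (0.970). Igfbp4 lay nearest Zcchc24 (0.980), Igfbp2 nearest Entpd2 (0.946), Igfbp5 nearest Bace2 (0.926), Insr nearest Dennd3 (0.946) and Igf1 nearest Irak3 (0.950). The values were lower for Igf1r (Cep170b, 0.893), Igf2r (Myo6, 0.899) and Irs2. The second gene for Irs2, after Dpysl4 (0.825), was Nr4a3 (0.817), an immediate-early gene.

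Whether the diet changed these genes was tested on UMI sums per library, in each class and in the whole gland, with edgeR's quasi-likelihood test and Benjamini-Hochberg adjustment over all genes of a fit. Of 110 pairs of gene and class or gland, 91 passed the filter on low counts. At an adjusted p of 0.05, 1 pair passed, Igfbp5 in macrophage-like cells, beside 399 of 136690 pairs over all genes (0.292%), of which 202 were higher and 197 lower. Without TMM scaling those were 225 higher and 737 lower. DESeq2 called none of the members, beside 0.836% called over all genes. It gave 12 of the 91 member pairs an unadjusted p under 0.05, beside 6343 of 136690 pairs over all genes. At an unadjusted p of 0.05, 19 of the 91 pairs passed, 9 higher and 10 lower, against 9.63% over all genes. The 63 tested pairs not named here had log2 differences from -0.78 to 0.78, 31 lower and 32 higher. With 2 libraries a diet the exact permutation p of a single value cannot go below 0.333.

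**Figure D4:**
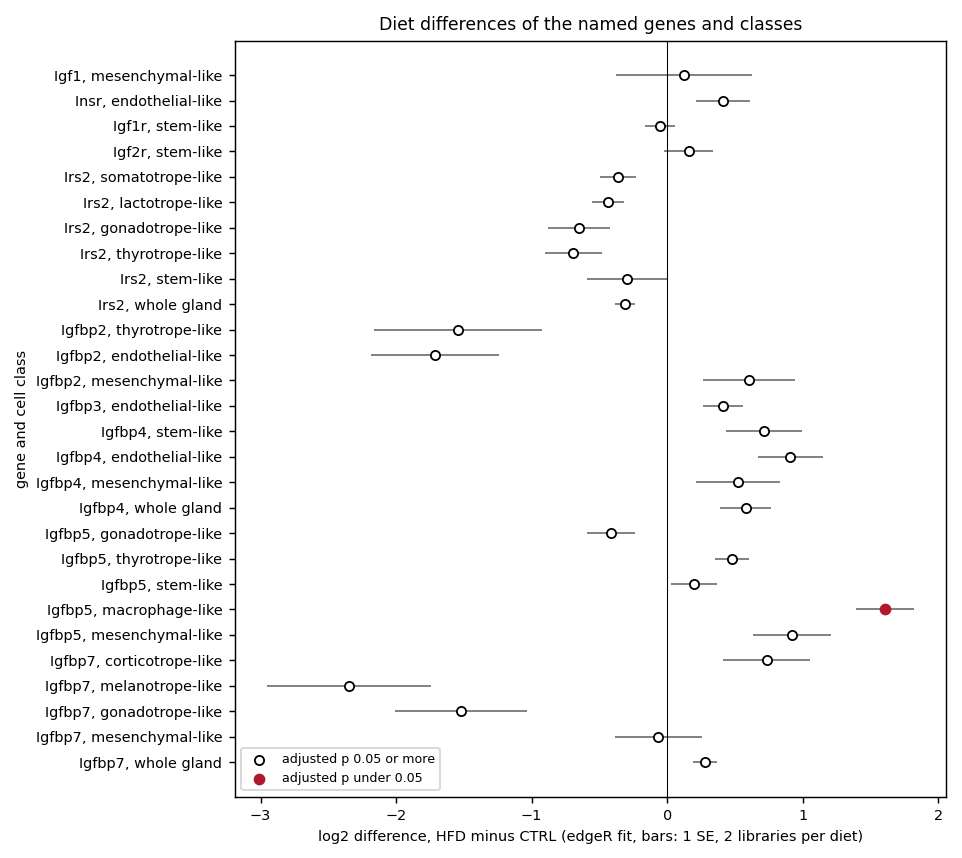
Difference between diets (log2, HFD minus CTRL, from edgeR; bars are the SE) for 28 pairs: each member in its highest class and every pair with an unadjusted p under 0.05. Igfbp5 in macrophage-like cells, at 1.61, is the pair that passed the adjusted threshold; the Irs2 values lie below 0 and most Igfbp5 and Igfbp4 values above it.

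Igfbp5 in macrophage-like cells was at 33.5 and 32.0 CPM in the CTRL libraries and 101 and 96.0 CPM in the HFD libraries, with no overlap; 15.0% of genes tested in this class were higher in both HFD libraries. The difference was 1.61 on the log2 scale (SE 0.21, edgeR adjusted p = 0.0323), in a fit that called 0.0402% of 7456 genes. These levels rest on 276 UMIs and are 1.19% of the stem-like level. Of 577 macrophage-like cells, 69 had an Igfbp5 UMI, and 7 cells with 5 or more (1, 2, 3 and 1 per library) held 77.2% of them, 1 of these cells alone holding 88. Of these 7, 5 had at least 2 UMIs of the 7 stem markers, against 36 of the 508 cells without Igfbp5. Summed stem markers in the class were 66.0, 189, 194 and 76.8 CPM, with Sox9 at 0 in both CTRL libraries and Aldh1a2 at 0 in CTRL 2. Mesenchymal markers were 4.19, 13.3, 8.75 and 96.0 CPM and endothelial markers 67.0, 8.004, 51.7 and 14.6 CPM. With the 60 cells left out that had at least 2 UMIs of the markers of stem-like, endothelial-like or mesenchymal-like cells, Igfbp5 was at 21.5, 12.2, 14.7 and 15.8 CPM, the diets overlapped and the difference was -0.14 (SE 0.42, edgeR adjusted p = 0.991). The direction of this pair thus turned with 60 of 577 cells, and DESeq2 (adjusted p = 0.161), keeping the copied barcodes (edgeR adjusted p = 0.0650) and a crossed replicate block (edgeR adjusted p = 0.184) also ended the call.

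**Figure D5:**
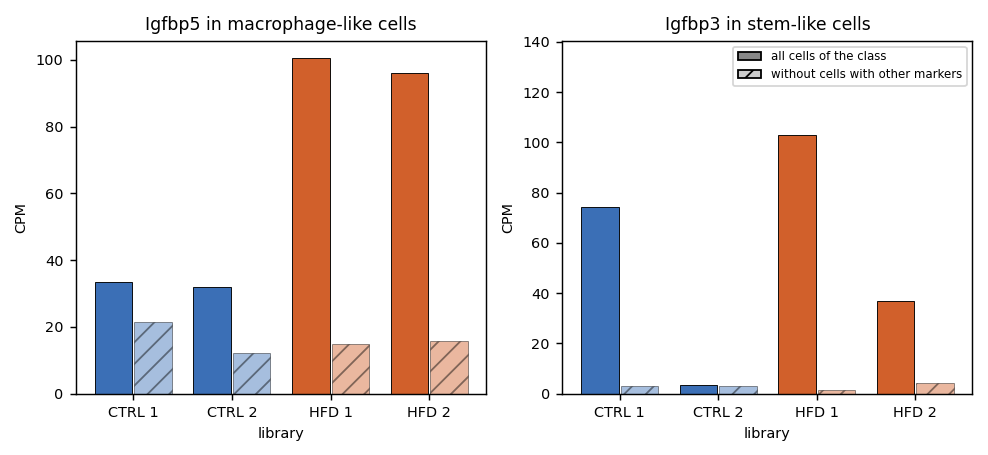
Bars show the level (CPM) of Igfbp5 in macrophage-like and of Igfbp3 in stem-like cells in each library, with CTRL and HFD in different colours. Plain bars cover all cells of the class, and hatched bars leave out cells that hold at least 2 UMIs of another class's markers. Igfbp5 goes from 32.0 to 101 CPM down to 12.2 to 21.5 CPM, and Igfbp3 from 3.56 to 103 CPM down to 1.60 to 4.12 CPM.

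The diet effect was also compared between each class and somatotrope-like cells, with the library as a block. Of 86 member pairs 1 was called, beside 0.568% over all genes, and 10 had an unadjusted p under 0.05, beside 9.09%. It was again Igfbp5 in macrophage-like cells, in a comparison that called 0.680% of genes, whose diet effect exceeded the somatotrope-like one by 1.22 (SE 0.31, edgeR adjusted p = 0.0141). Leaving out CTRL 1, HFD 1 or HFD 2 ended the call, with edgeR adjusted p of 1, 0.0710 and 1. That value was -0.52 (edgeR adjusted p = 1) with the same 60 cells left out.

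Igfbp5 did not pass the adjusted threshold in its main classes. In mesenchymal-like cells both HFD libraries (5913 and 4161 CPM) were above both CTRL libraries (2670 and 2578 CPM), a difference of 0.92 (SE 0.29, edgeR adjusted p = 1.00); 17.6% of all genes tested there were higher in both HFD libraries. In stem-like cells the libraries were also apart, at 5083 and 5039 against 5902 and 5922 CPM, with a difference of 0.20 (SE 0.17, edgeR adjusted p = 0.926). Of all genes tested in stem-like cells, 20.4% were higher in both HFD libraries. Thyrotrope-like cells had 368 and 329 CPM on CTRL and 529 and 434 CPM on HFD (log2 0.48, SE 0.12, edgeR adjusted p = 0.192), where 16.6% of genes were higher in both HFD libraries and 20.2% lower in both. Gonadotrope-like cells went the other way, with 189 and 300 CPM on CTRL and 161 and 172 CPM on HFD (log2 -0.42, SE 0.18, edgeR adjusted p = 0.210). Of all genes tested in gonadotrope-like cells, 40.2% were lower in both HFD libraries. Without CTRL 1, whose level is the lower of the CTRL libraries, the gonadotrope-like difference was -0.73 (edgeR adjusted p = 0.00799), and without CTRL 2 it was -0.03.

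Irs2 had a log2 difference under 0 in 9 of 10 classes (50.4% of all gene and class pairs did), and no pair passed the adjusted threshold. The classes come from the same libraries, so these signs are not independent of each other. How often other genes were lower in 9 of 10 classes was not counted. In lactotrope-like cells it was at 47.1 and 41.7 CPM on CTRL and 37.7 and 30.8 CPM on HFD (log2 -0.44, SE 0.12, edgeR adjusted p = 0.121); 12.6% of genes there were lower in both HFD libraries. Without HFD 1 the lactotrope-like value was -0.54 (edgeR adjusted p = 0.0478). Thyrotrope-like cells had 42.9 and 34.9 CPM against 31.6 and 19.9 CPM (-0.69, SE 0.21, edgeR adjusted p = 0.333), and gonadotrope-like cells 30.9 and 47.1 against 17.2 and 26.1 CPM (-0.65, SE 0.23, edgeR adjusted p = 0.152). Leaving out 1 library moved Irs2 from -0.31 (without CTRL 2) to -1.04 (without HFD 2) in gonadotrope-like, from -0.31 (without HFD 2) to -0.96 (without HFD 1) in thyrotrope-like and from -0.14 (without CTRL 2) to -0.55 (without CTRL 1) in somatotrope-like cells. In the gonadotrope-like fit 40.2% of all genes were lower in both HFD libraries, and in the thyrotrope-like fit 20.2%. Somatotrope-like cells overlapped between diets (45.3 and 64.9 against 46.5 and 48.0 CPM; -0.36, SE 0.13, edgeR adjusted p = 0.234). Their libraries fill the somatotrope-like clusters unequally: 1 cluster took 110 and 133 cells from CTRL and 860 and 1071 from HFD, and within each of the 3 clusters the diets overlapped. Over the whole gland Irs2 was at 76.9 and 83.2 CPM on CTRL and 63.9 and 68.5 on HFD (-0.31, SE 0.07, edgeR adjusted p = 0.393; 15.2% of genes were lower in both HFD libraries there), and in stem-like cells, its highest class, the diets overlapped (-0.30, SE 0.29, edgeR adjusted p = 0.934).

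Immediate-early genes, a list of 24 such as Fos and Egr1, have RNA that rises quickly when cells are stimulated or tissue is handled. Some of them fell in each of the 4 classes with a low Irs2 p. In somatotrope-like cells 4 of 24 fell (median log2 over the list -1.36; 0.0550% of genes called), 2 of 24 in lactotrope-like cells (median -0.31; 1.09% called), 7 of 23 in gonadotrope-like cells (median -0.78; 1.23% called) and 11 of 24 in thyrotrope-like cells (median -0.89; 0.417% called), by edgeR's adjusted p. DESeq2 called 14, 4, 6 and 6 in the same classes, all lower. Over all genes it called 368 of 12016, 138 of 13764, 160 of 4744 and 20 of 9503 there. In the other 6 classes and the gland edgeR called none. Up to 10 genes of a class (corticotrope-like) and 12 in the gland had an unadjusted edgeR p under 0.05. Over all genes those were 1242 of 12590 and 1807 of 18513. DESeq2 called 1 in corticotrope-like cells and 8 in the gland, beside 67 of 9905 and 184 of 16359 over all genes. None rose in any fit of either tool. The medians over all genes in these fits were -0.0012, 0.0017, 0.0049 and 0.0013. This list was chosen with its changes in these data known, so its direction is no independent evidence. Their summed level was 7693 and 11203 CPM on CTRL and 4272 and 5104 CPM on HFD in somatotrope-like cells, and 6337 and 5759 against 3718 and 3162 CPM in thyrotrope-like cells. In stem-like cells, where Irs2 is highest, the sums overlapped between diets (33463 and 32402 against 29981 and 37459 CPM). Endothelial-like cells, where Irs2 is lowest, had sums of 18074 and 33488 on CTRL and 17507 and 34565 CPM on HFD. The part of this list in the Irs2 values was not tested.

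The other binding proteins gave differences between libraries that did not pass the adjusted threshold. Igfbp4 was higher in both HFD libraries in endothelial-like cells (119 and 77.2 against 209 and 156 CPM; log2 0.91, SE 0.24, edgeR adjusted p = 0.999), in stem-like cells (23.8 and 13.7 against 27.7 and 34.9 CPM; 0.71, SE 0.28, edgeR adjusted p = 0.924) and in the whole gland (14.3 and 20.6 against 23.5 and 29.8 CPM; 0.58, SE 0.19, edgeR adjusted p = 0.471). The shares of all genes higher in both HFD libraries were 13.5%, 20.4% and 27.2% in these fits. In mesenchymal-like cells the Igfbp4 difference was 0.52 (SE 0.31, edgeR adjusted p = 1.00). Cells with at least 2 UMIs of the markers of another of the stem, endothelial, macrophage and mesenchymal classes were also left out. With 601 of 1253 endothelial-like cells left out, Igfbp4 overlapped between diets there (139 and 66.6 against 173 and 132 CPM). With 444 of 1374 stem-like cells left out it stayed apart (12.1 and 11.9 against 27.8 and 39.3 CPM). Igfbp3 in all endothelial-like cells, 2227 and 2074 against 2726 and 2939 CPM, differed by 0.41 (SE 0.15, edgeR adjusted p = 0.999). Igfbp2 in mesenchymal-like cells differed by 0.60 (SE 0.34) with CTRL 1 the lowest library, and Igfbp7 there overlapped between diets (-0.06, SE 0.32). Without CTRL 1 the mesenchymal-like differences were 0.16 for Igfbp4 and 0.175 for Igfbp2, and without CTRL 2 they were 1.014 and 1.23. In stem-like cells Igfbp4 differed by 1.14 without CTRL 1 and 0.42 without CTRL 2, and in the gland by 0.37 and 0.83.

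The remaining low p-values came from classes where the gene is at 1.00% of its highest class or less, and from Igfbp7 in the gland. Igfbp7 in melanotrope-like cells was at 6.00 and 3.23 CPM against 1.41 and 0.561 CPM (log2 -2.35, SE 0.61, edgeR adjusted p = 0.829), and 3 cells held 46.2% of its 93 UMIs there. The summed mesenchymal markers in this class were 8.51 and 16.4 CPM on CTRL and 3.53 and 2.80 CPM on HFD, with Col1a1, Col3a1 and Pdgfra at 0 in both HFD libraries and Col3a1 in CTRL 1; their part was not tested. Without CTRL 2 Igfbp7 there passed the threshold (-2.80, edgeR adjusted p = 0.00178). Igfbp7 in gonadotrope-like (-1.52, SE 0.49, edgeR adjusted p = 0.128) and corticotrope-like cells (0.73, SE 0.32, edgeR adjusted p = 0.490) went opposite ways, and over the gland it had 105 and 127 against 145 and 144 CPM (0.28, SE 0.09, edgeR adjusted p = 0.464). Igfbp2 in endothelial-like cells was at 7.72 and 6.36 against 2.24 and 1.93 CPM (-1.71, SE 0.48, edgeR adjusted p = 0.999), with 3 CTRL cells holding 75.0% of 44 UMIs. Leaving out the 601 of 1253 endothelial-like cells with at least 2 UMIs of stem, macrophage or mesenchymal markers left 0, 1, 1 and 0 Igfbp2 UMIs. In thyrotrope-like cells Igfbp2 was at 6.71 and 4.46 against 0 and 2.85 CPM (-1.54, SE 0.62, edgeR adjusted p = 0.547), on 47 UMIs in all. It was -0.97 without HFD 1, the library at 0, and without HFD 2 the HFD side had no UMI. The summed stem markers in thyrotrope-like cells were 287 and 114 CPM on CTRL and 78.9 and 55.9 CPM on HFD, with none of the 7 at 0, and stem-like cells held 31.5% of all Igfbp2 UMIs (mean over libraries); their part in this value was not tested.

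The receptors and the ligand had no pair with an unadjusted p under 0.05 in any class. Insr in endothelial-like cells was 135 and 158 CPM on CTRL and 173 and 214 CPM on HFD (log2 0.41, SE 0.20, edgeR adjusted p = 0.999). Of all genes tested in endothelial-like cells, 13.5% were higher in both HFD libraries. Igf1r in stem-like cells (-0.05, SE 0.11), Igf2r in stem-like cells (0.16, SE 0.18) and Igf1 in mesenchymal-like cells (0.12, SE 0.50) overlapped between diets, with edgeR adjusted p of 0.976, 0.942 and 1.00. In somatotrope-like cells Igf1 differed by 0.48 (SE 0.50, edgeR adjusted p = 0.639), and without HFD 2 by 1.13 (edgeR adjusted p = 0.00681) but without HFD 1 by -0.70 (edgeR adjusted p = 0.203), values chosen after they were seen. The spread of Igf1 between the CTRL mesenchymal-like libraries (33.9 and 122 CPM) was larger than the difference between the diets.

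A wider list of 45 genes of the pathway (other ligands, binding proteins, their proteases, adaptors, kinases, phosphatases and targets) was tested in the same fits. None was called by edgeR in any class or in the gland, beside 0.292% of pairs over all genes. Of 339 pairs of gene and fit, 39 had an unadjusted p under 0.05, beside 9.63% over all genes. By class those were 9 of 33 in somatotrope-like and 9 of 31 in gonadotrope-like cells, beside 18.1% and 21.4% over all genes, and 0 of 32 in endothelial-like and 0 of 23 in macrophage-like cells, beside 2.56% and 5.20%. The lowest p-values were those of Pappa2, a protease that cleaves IGF binding proteins, and of the adaptor Irs4, both in somatotrope-like cells. Pappa2 was at 58.2, 57.3, 41.6 and 37.6 CPM (log2 -0.70, SE 0.08) and Irs4 at 46.3, 43.5, 28.6 and 29.0 CPM (log2 -0.80, SE 0.10), each with an edgeR adjusted p of 0.0744. DESeq2 called 3 pairs of this list: Pappa2 (adjusted p = 7.73e-06) and Irs4 (adjusted p = 4.14e-06) lower in somatotrope-like cells, where it called 3.06% of all genes, and Pik3r1, a regulatory subunit of PI3 kinase, higher in the gland (log2 0.33, adjusted p = 0.00569), where it called 1.12%. For Irs4 the difference went the other way in thyrotrope-like cells, with 124 and 125 CPM on CTRL and 171 and 148 CPM on HFD (log2 0.36, SE 0.12, edgeR adjusted p = 0.417). In somatotrope-like cells the libraries of each diet lay apart for Pappa2 and Irs4, as they did for 11.8% of genes that were lower in both HFD libraries of that class. Among the levels of this list, Irs4 was highest in thyrotrope-like cells (142 CPM), Pappa2 in somatotrope-like cells (48.7), and Igfbp6 (503), Igf2 (74.0) and the protease Htra1 (231) in mesenchymal-like cells. The insulin genes Ins1 and Ins2 had 0 and 1 UMIs in all kept cells.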

How the data were processed

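The deposited values are raw UMI counts, a whole number for each gene in each barcode, from 10x Genomics 3' libraries (per the labels' protocols). Cell Ranger 6.1.2, Seurat 4.3 and mm10 are named, without roles, per the submitters' processing notes; which annotation and strand setting the counting used is not given in the sources used here, so reads of overlapping or antisense genes may be shared. Totals per library were 74758237 to 101903367 UMIs, and counts and intervals cover counting error only.

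A barcode was kept from 500 genes up, with no more than 20% of UMIs on the 13 mitochondrial genes. Copies of barcodes, and putative doublets at an assumed 0.8% per 1000 cells scored against simulated ones (163 to 433 per library), were removed. Clustering (scanpy 1.11.5, Leiden at resolution 0.8, 30 components, 20 neighbours, 1991 of 2000 variable genes) left out members and pathway genes. A cluster was named from 3 or more markers that were seen in 10% of its cells and were at log2 1 above the median cluster or higher; a first score, against all other cells, left the somatotrope-like clusters unnamed and was replaced after the clusters were seen and before diets were compared. Cells are not replicates, so UMIs were summed per library for each class that had 30 cells or more in all libraries, and tested with edgeR 4.0.16 (R 4.3.3; TMM, filterByExpr, quasi-likelihood F-test, called at adjusted p under 0.05). SE came from the F statistic. DESeq2 1.42.0 was an alternative. The scripts were tested on simulated counts.

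Every member is described in every class. Full diet values are given for its highest class and for pairs with an unadjusted p under 0.05. The members, lists and rules were chosen with earlier results of these data known. Alternatives were other scalings and filters, cell filters, doublets, member genes in the clustering, a replicate block and leaving out each library. Chosen after seeing the data were keeping the copies, a crossed block, and leaving out cells with at least 2 UMIs of the markers of another of the stem, endothelial, macrophage and mesenchymal classes.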

Additional observations from a re-analysis of the deposited data

Results flagged for a closer look

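The diet effect on Igfbp5 differed between macrophage-like and somatotrope-like cells by 1.22 on the log2 scale in edgeR's interaction test, with an adjusted p of 0.0141, and is listed for that difference between groups. Igfbp5 was higher in both HFD libraries than in both CTRL libraries in macrophage-like cells (33.5 and 32.0 against 101 and 96.0 CPM) and overlapped between diets in somatotrope-like cells (13.2 and 8.74 against 21.8 and 12.3 CPM). Leaving out each library in turn gave 0.80 to 1.52, with an edgeR adjusted p of 1 without CTRL 1 and 1 without HFD 2, 0.0710 without HFD 1 and 0.0277 without CTRL 2. With the 60 macrophage-like cells that hold markers of another class left out it was -0.52.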

How the results depend on the processing

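The limits are 2 libraries per diet, class sums per library down to 53 cells (mesenchymal-like, CTRL 1), and class names rebuilt from RNA. Of 28 named diet effects, 22 kept their direction under each of the 14 settings in which they were computed. Counts of member pairs called (1 as reported) were 0 with DESeq2, 9 with no low-count filter, 0 with barcode copies kept and 0 with cells holding markers of another class left out, the last 2 chosen after seeing the data. They were 2 to 4 when each library was left out, and 1 without TMM scaling, with stricter cell filters, with doublets kept or with member genes in the clustering. Over all genes the calls, 399 as reported, were 969 with DESeq2, 962 without TMM scaling, 2558 with no low-count filter and 595 to 1097 with a library left out. Omitting TMM scaling shifted the median of all genes by 0.15 in somatotrope-like and -0.12 in gonadotrope-like cells.

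Members called for a difference between classes (1 as reported) were 2 with no low-count filter, 0 with cells holding other markers left out, and 0 to 3 with a library left out. Leaving out those cells turned the difference for Igf1 in mesenchymal-like cells to -0.17, for Igfbp5 in macrophage-like cells to -0.14 and for its comparison with somatotrope-like cells to -0.52. With a library left out, differences crossed 0 for Igf1r (-0.131 to 0.0316), Igf2r (-0.0136 to 0.347) and Irs2 (-0.65 to 0.18) in stem-like cells and for Igf1 (-0.50 to 1.37) and Igfbp7 (-0.37 to 0.33) in mesenchymal-like cells. The mesenchymal-like fit with cells left out kept 154 of 451 cells, and CTRL 1 had 1 Igf1 UMI there. The causes of these changes were not tested.

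The labels share replicate numbers between diets, but name no shared animal or batch, and the deviations of same-numbered libraries correlated at r from -0.18 (somatotrope-like) to 0.46 (endothelial-like) by class and -0.02 in the gland. Pairing by number was not established from the design, although same-numbered libraries moved together in endothelial-like and, at 0.16, in mesenchymal-like cells. A replicate block gave 4 member calls and 832 over all genes; its calls were Irs2 in gonadotrope-like, Igfbp5 in thyrotrope-like and macrophage-like and Igfbp4 in endothelial-like cells (edgeR adjusted p = 0.0191 with the block). The crossed replicate block, chosen after seeing the data, gave 1 and 2137, the 1 being Irs2 in gonadotrope-like cells and not Igfbp5 in macrophage-like cells.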
